A study of Mus musculus with 9 samples.

Results

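The genes described here are 9 genes of the major histocompatibility complex (MHC) class II pathway of the mouse, measured in RNA of regulatory T cells (Tregs) sorted from the gut. They are the peptide-binding chains H2-Aa, H2-Ab1 and H2-Eb1, the invariant chain Cd74, the peptide editors H2-DMa, H2-DMb1, H2-Oa and H2-Ob, and the regulator Ciita. They were found among 22228 genes with a row on the array by the symbol in the platform annotation, counting rows that a gene shares with a small RNA gene. Where a gene had several rows, the one with the highest mean over all arrays was taken, a choice that does not use the groups. The members were chosen by symbol, and the family was picked with earlier results of these arrays known and thus selected on the signals of the same comparisons, among them the low H2-Aa signal in Y3, so the counts of members below describe these arrays and are no independent support for a pattern. Of the 9 genes, 8 were bright enough to be tested among 12832 genes, and H2-DMb1 was not.

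The samples were 3 arrays of Tregs from Y3/CD103-/- mice, 3 from Y3 mice and 3 from wild-type (WT) mice, all of the C57BL/6 strain. Ages are not given in the labels. The cells came from the lamina propria, the connective tissue under the gut epithelium, of small and large intestine together, and were sorted on a red fluorescent protein that reports Foxp3, the transcription factor that defines Tregs. RNA was amplified in a single round, labelled with biotin and hybridised to Affymetrix mouse Gene ST2.0 arrays, whose values are log2 signals made with RMA, a method that corrects, scales and summarises the probes of a gene. The labels do not describe the Y3 mice, and the series title names IL-2Rβ, a chain of the interleukin-2 receptor, and CD103, the integrin chain encoded by Itgae. No group lacked CD103 alone. The labels do not say whether arrays of 1 group came from separate mice or from pools. The p-values therefore weigh group differences against the spread between these arrays, which may not be the spread between mice. The number of arrays limits the precision.

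MHC class II molecules carry peptides from proteins taken up by a cell to its surface, where CD4+ T cells read them. They are made mainly by dendritic cells, macrophages and B cells, and in gut epithelium after interferon-γ; mouse T cells, unlike human ones, are known for making little of them because Ciita is silent. An α and a β chain assemble on the invariant chain, DM exchanges the invariant chain remnant for peptide in the endosome, and DO restrains DM. Transcription depends on CIITA, a co-activator without DNA binding of its own, which is recruited by the RFX, CREB and NF-Y factors on the X and Y boxes of class II promoters.

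The X and Y boxes could be read in the promoters of 5 of the 9 genes, and the stretches are printed because these boxes are where CIITA's partner factors are known to bind. Promoter windows of 300 bases (250 before and 50 after a gene's start, RefSeq, GRCm38.p6) were used for 6 of the 9 genes, with 2 windows for H2-DMa. The motifs searched, chosen after reading these windows, were TGATTGG, a core of the Y box that NF-Y binds, and GNAAC, bases at the start of the X box that RFX binds, 25 to 35 bases apart from start to start. Both are in capitals in the stretches, which run 5′ to 3′ on the gene's strand.
H2-Aa (chr17:34287855-34287916, minus strand): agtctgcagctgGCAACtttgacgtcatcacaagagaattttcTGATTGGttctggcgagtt
H2-Eb1 (chr17:34305764-34305824, plus strand): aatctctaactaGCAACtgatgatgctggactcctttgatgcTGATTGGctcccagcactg
H2-DMb1 (chr17:34153085-34153146, plus strand): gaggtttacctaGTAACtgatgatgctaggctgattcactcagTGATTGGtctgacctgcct
H2-Oa (chr17:34092291-34092352, plus strand): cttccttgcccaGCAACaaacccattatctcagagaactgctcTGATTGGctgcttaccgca
H2-Ob (chr17:34238806-34238864, plus strand): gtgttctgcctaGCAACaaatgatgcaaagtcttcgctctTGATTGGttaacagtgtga

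The 2 motifs began 31 bases apart in H2-Aa, H2-DMb1 and H2-Oa, 30 in H2-Eb1 and 28 in H2-Ob. Neither H2-DMa window held TGATTGG on either strand. Among the 32851 promoter windows of the same length that were searched, 7.82% held TGATTGG and 84.8% held GNAAC on either strand, and 0.323% held the pair at this spacing. The windows searched did not cover every chromosome. These letters are a description of the DNA and say nothing about which factors were bound in these cells. The pair was present both in H2-Aa, which fell in Y3, and in H2-Ob, which fell in Y3/CD103-/-.

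**Figure D1:**
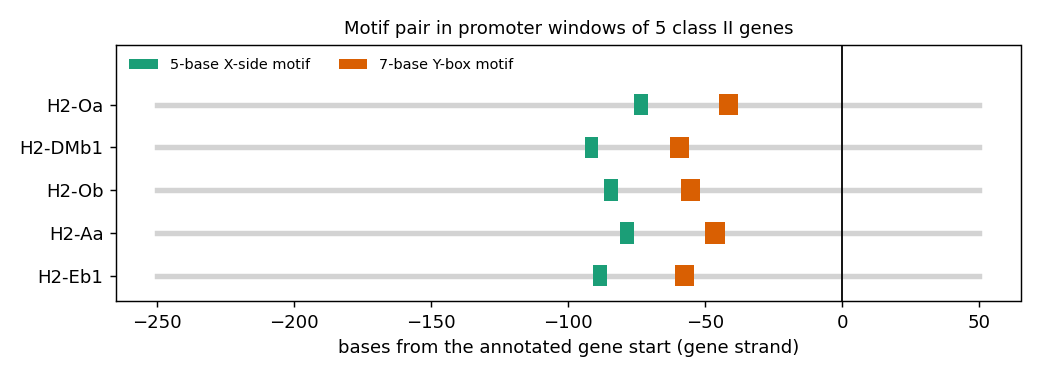
Place of the 2 motifs in the promoter windows of 5 class II genes, in bases from the annotated start of each gene on its own strand (negative before it); grey lines are the 300-base windows. The GNAAC motif (green) begins at positions -94 to -76 and the TGATTGG motif (orange) at -63 to -45.

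Foxp3 and Itgae go with the labels as far as the arrays show, though a marker of other cells was bright too and the Treg gene Il2ra was not level. Car1, an intestinal epithelial marker, measured 8.47, 6.90 and 5.78 log2 in Y3/CD103-/-, 6.03, 6.00 and 6.65 in Y3, and 7.65, 9.63 and 8.33 in WT. Foxp3 lay between 9.29 and 9.68 log2 on all 9 arrays and the mean of the 8 Treg and T cell genes on the array between 9.16 and 9.35, against array medians of 3.15 to 3.23. Of those 8, Il2ra alone passed in a comparison, falling in Y3/CD103-/- relative to WT (-0.86 log2, limma adjusted p = 0.0258). Among all genes tested, 0.818% passed there in either direction. Il2ra measured 7.12, 7.29 and 7.45 log2 in Y3/CD103-/-, 7.41, 7.48 and 7.61 in Y3, and 8.11, 8.15 and 8.19 in WT. Its call held in 11 of 23 alternatives. Itgae was 6.64, 6.05 and 6.86 log2 on the Y3/CD103-/- arrays, against 9.35, 9.11 and 9.51 on the Y3 arrays, and 8.06, 7.87 and 7.85 on the WT arrays. Its signal thus stayed above the array medians in the group labelled CD103-/-. Itgae fell in Y3/CD103-/- relative to Y3 (-2.81 ± 0.21 log2, SE, limma adjusted p = 0.000677), the 1 gene that passed there. Il2rb, which encodes IL-2Rβ, lay between 7.86 and 8.48 log2 in Y3/CD103-/-, between 7.87 and 8.50 in Y3 and between 8.95 and 9.36 in WT. The median of all genes tested lay 0.15 log2 higher in Y3 than in WT, which quantile normalization brought to 0.04, so differences of that size in Y3 are differences from a shifted background.

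H2-Aa, the α chain of the I-A molecule, fell in Y3 Tregs relative to WT Tregs, and it was the 1 of 8 members to pass in that comparison, in which 101 genes, 0.787% of those tested, passed in either direction. H2-Ab1, H2-Eb1 and Cd74 also lay lower in Y3 on every array but did not pass. In Y3/CD103-/- Tregs the values of the same 4 genes overlapped those of WT and lay wholly above those of Y3. H2-Ob fell in Y3/CD103-/- relative to WT, the 1 of 8 members to pass there among 105 genes (0.818%), but it was bright enough for the test only on the Y3 and WT arrays and lay below the array median in Y3/CD103-/-. In limma 0 of the 8 passed between Y3/CD103-/- and Y3, where 1 gene in all (0.00779%) did. With no adjustment, 4 members lay higher there and 2 lower at a p under 0.05, against 1.78% and 8.12% of all genes tested. All 3 comparisons come from the same 9 arrays, and each pair shares the arrays of 1 group.

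**Figure D2:**
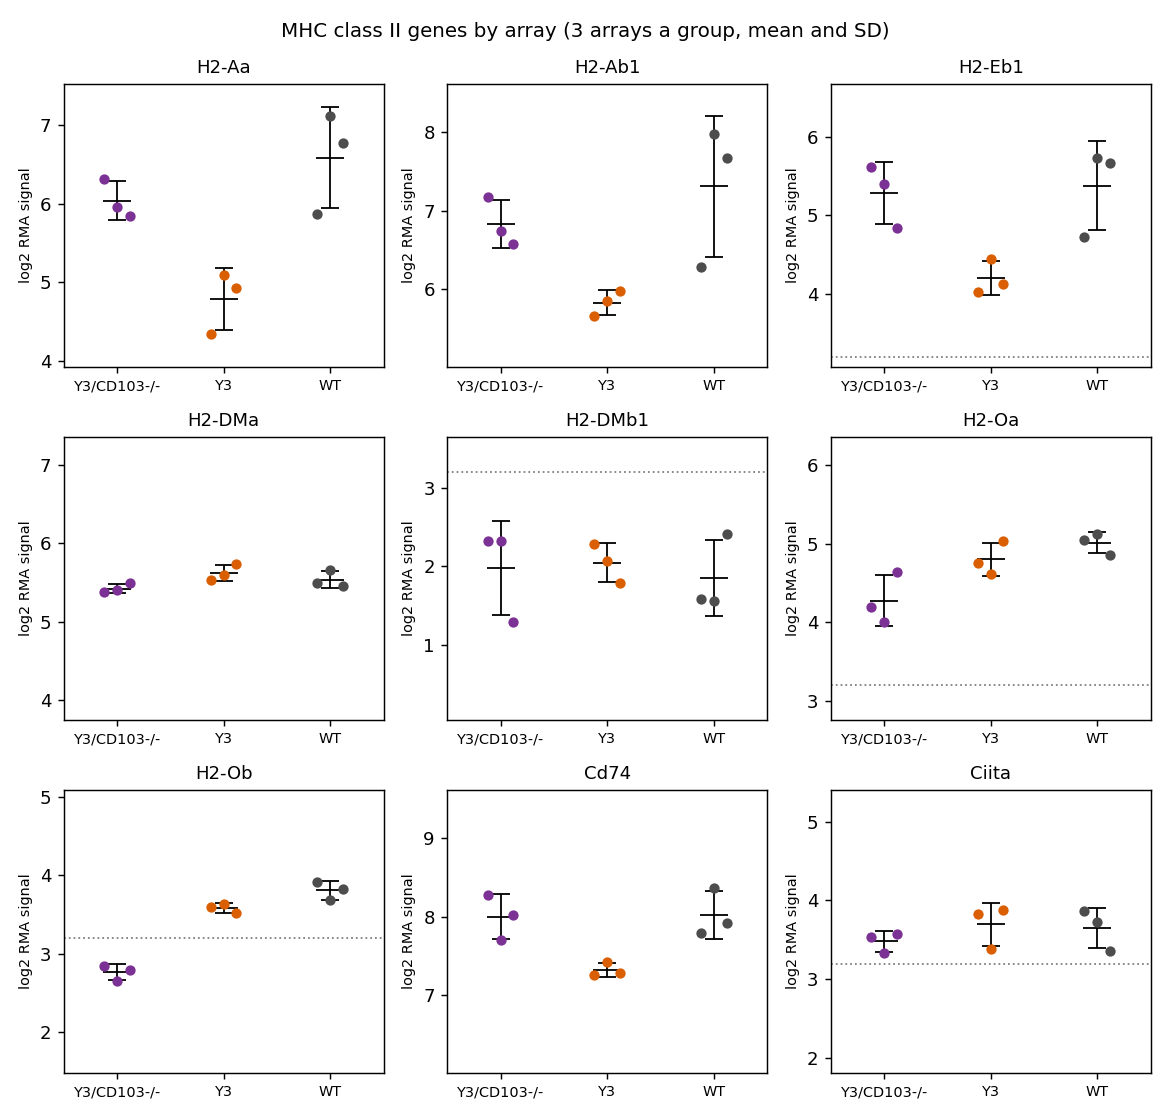
log2 RMA signal of each of the 9 class II genes on each array (points), with the mean and SD of 3 arrays (bars), for Y3/CD103-/-, Y3 and WT; every panel spans 3.6 log2, and the dotted line, where in range, is the mean of the array medians. H2-Aa, H2-Ab1, H2-Eb1 and Cd74 are lowest on the 3 Y3 arrays, and H2-Ob is below the dotted line on the 3 Y3/CD103-/- arrays alone.

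H2-Aa measured 6.32, 5.96 and 5.84 log2 on the Y3/CD103-/- arrays, 4.34, 5.10 and 4.93 on the Y3 arrays, and 5.87, 7.12 and 6.77 on the WT arrays. Every Y3 array was below every other array, and the Y3/CD103-/- values lay within or just under the WT range. The difference of Y3 from WT was -1.80 ± 0.31 log2 (SE, 95% interval -2.48 to -1.12, limma adjusted p = 0.0264), a 3.48-fold lower signal. That call was lost without Y3 array 1, 2 or 3 (adjusted p = 0.122, 0.0588 and 0.121), without WT array 2 or 3 (0.0726 and 0.0769), with Y3 arrays 1 and 3, the 2 most alike, averaged as 1 sample (0.119), and with the arrays of Y3 and WT alone (0.0513), while the difference stayed between -2.16 and -1.54 log2 in the 23 alternatives tried. Y3/CD103-/- differed from WT by -0.55 ± 0.31 log2 (adjusted p = 0.483) and from Y3 by 1.25 ± 0.31 log2 (unadjusted p = 0.00196, adjusted p = 0.309).

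H2-Ab1, the β chain that pairs with H2-Aa, measured 7.17, 6.74 and 6.57 log2 in Y3/CD103-/-, 5.66, 5.85 and 5.97 in Y3, and 6.28, 7.97 and 7.67 in WT. Its Y3 arrays were again the 3 lowest, and WT array 1 lay apart from the other WT arrays, below all Y3/CD103-/- arrays. Y3 differed from WT by -1.48 ± 0.36 log2 (95% interval -2.28 to -0.68, limma adjusted p = 0.0924), a 2.79-fold lower signal that did not pass. Between Y3/CD103-/- and WT the difference was -0.48 ± 0.36 (95% interval -1.28 to 0.33, adjusted p = 0.624) and between Y3/CD103-/- and Y3 it was 1.00 ± 0.36 (95% interval 0.20 to 1.81, adjusted p = 0.438).

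H2-Eb1 is the β chain of the I-E molecule, whose α chain gene is a pseudogene in C57BL/6 mice. It measured 5.61, 5.40 and 4.84 log2 in Y3/CD103-/-, 4.02, 4.44 and 4.13 in Y3, and 4.72, 5.73 and 5.67 in WT. The Y3 arrays lay below all others, and the Y3/CD103-/- and WT ranges overlapped. Y3 differed from WT by -1.17 ± 0.29 log2 (95% interval -1.81 to -0.54, limma adjusted p = 0.0912), a 2.26-fold lower signal. Y3/CD103-/- differed from WT by -0.09 ± 0.29 (95% interval -0.73 to 0.54, adjusted p = 0.925), a sign that turned without WT array 2, WT array 3 or Y3/CD103-/- array 3, and from Y3 by 1.08 ± 0.29 (95% interval 0.45 to 1.72, adjusted p = 0.315).

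The spread within a group differed between these genes. In WT the SD over 3 arrays was 0.64 log2 for H2-Aa, 0.90 for H2-Ab1 and 0.57 for H2-Eb1, against 0.40, 0.16 and 0.22 in Y3. WT array 1 was the lowest WT array for H2-Aa, H2-Ab1, H2-Eb1 and Cd74, Y3 array 1 the lowest Y3 array and Y3/CD103-/- array 1 the highest Y3/CD103-/- array for the same 4 genes. Without WT array 2, WT array 3 or any 1 Y3 array, 0 members passed in Y3 versus WT in place of 1. Without WT array 1, 3 members fell there, when 120 of all genes tested passed. The 3 members were H2-Aa (-2.16 log2, limma adjusted p = 0.0093), H2-Ab1 (-1.996, adjusted p = 0.00637) and H2-Eb1 (-1.50, adjusted p = 0.0295).

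Cd74, the invariant chain that escorts new class II molecules to the endosome, was read from a row that the annotation also assigns to the microRNA gene Mir5107. It measured 8.28, 7.70 and 8.03 log2 in Y3/CD103-/-, 7.26, 7.43 and 7.29 in Y3, and 7.79, 8.37 and 7.92 in WT. The Y3 arrays were the 3 lowest, with a spread of 0.09 log2 (SD, n = 3), against 0.29 in Y3/CD103-/- and 0.30 in WT. Y3 differed from WT by -0.70 ± 0.20 log2 (95% interval -1.14 to -0.26, limma adjusted p = 0.132), a 1.62-fold lower signal. The Cd74 difference of Y3/CD103-/- from WT was -0.02 ± 0.20 (95% interval -0.46 to 0.42, adjusted p = 0.978), a sign that turned without WT array 2 or Y3/CD103-/- array 2, and that from Y3 was 0.68 ± 0.20 (95% interval 0.24 to 1.12, adjusted p = 0.344).

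The 3 chains and Cd74 moved together from array to array. Their mean was 6.84, 6.45 and 6.32 log2 in Y3/CD103-/-, 5.32, 5.70 and 5.58 in Y3, and 6.17, 7.30 and 7.01 in WT. Over the 9 arrays, Pearson's r between any 2 of the 4 genes was 0.86 to 0.96, and after each array's group mean was taken out it was 0.52 to 0.92. These correlations describe 9 arrays that share their groups and their normalization. H2-DMa, H2-Oa, H2-Ob and Ciita did not follow this pattern, with r from -0.53 to 0.02 against the 4 genes.

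**Figure D3:**
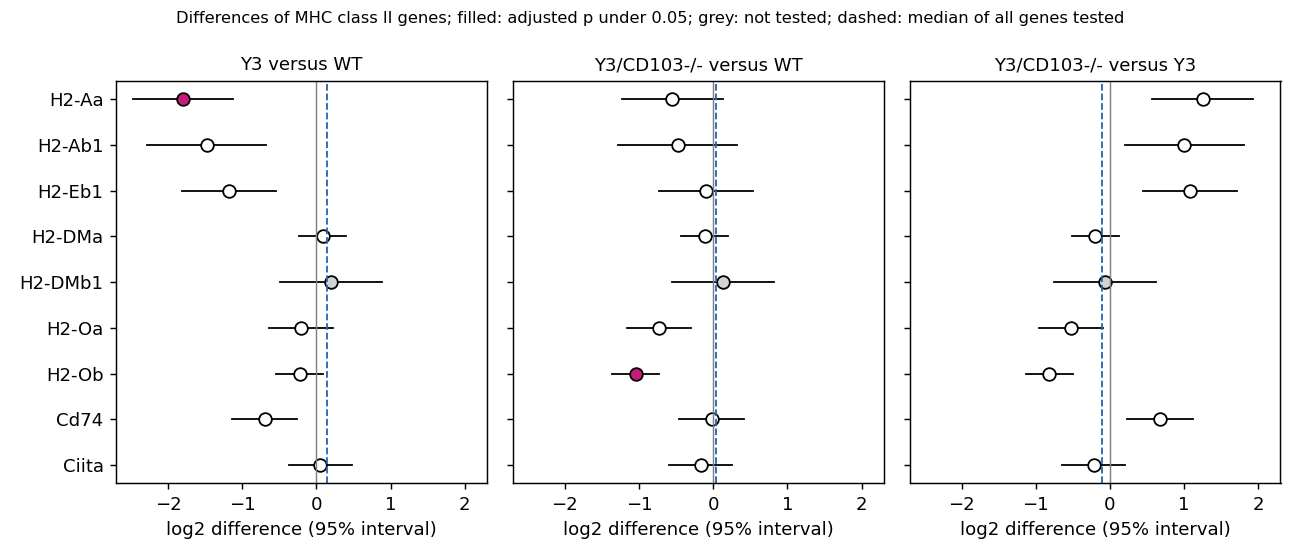
log2 difference of each class II gene in 3 panels (left, Y3 versus WT; centre, Y3/CD103-/- versus WT; right, Y3/CD103-/- versus Y3), with the 95% interval from limma; filled points passed at an adjusted p under 0.05, the grey point (H2-DMb1) was not tested, and the dashed line is the median of all genes tested. H2-Aa stands at -1.80 in the first comparison and H2-Ob at -1.04 in the second.

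H2-DMa, the α chain of the peptide exchanger DM, was nearly level. It measured 5.38, 5.40 and 5.49 log2 in Y3/CD103-/-, 5.53, 5.59 and 5.73 in Y3, and 5.50, 5.66 and 5.45 in WT. The difference of Y3 from WT was 0.08 ± 0.14 log2 (limma adjusted p = 0.794), with a 95% interval of -0.23 to 0.40, and its sign turned under quantile normalization and under centring on the genes tested. H2-DMa differed by -0.11 ± 0.14 in Y3/CD103-/- from WT (adjusted p = 0.787) and by -0.20 ± 0.14 from Y3 (adjusted p = 0.667).

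H2-DMb1, a β chain of DM, stayed below the array median of its own array on all 9 arrays and was not tested. Its values were 2.32, 2.33 and 1.29 log2 in Y3/CD103-/-, 2.29, 2.07 and 1.79 in Y3, and 1.59, 1.56 and 2.41 in WT, and the 3 groups overlapped. H2-DMb2, a close copy whose probes could share transcripts with it, measured 3.48, 3.22 and 2.81 log2 in Y3/CD103-/-, 3.58, 4.01 and 3.56 in Y3, and 3.57, 3.46 and 3.86 in WT. The Y3/CD103-/- values of H2-DMb2 were below those of Y3 (-0.55 ± 0.21 log2, limma adjusted p = 0.454).

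H2-Ob, the β chain of the DM inhibitor DO, measured 2.85, 2.65 and 2.79 log2 in Y3/CD103-/-, 3.59, 3.64 and 3.52 in Y3, and 3.92, 3.68 and 3.82 in WT. The groups did not overlap, and the Y3/CD103-/- values were below their arrays' medians, so the gene entered the tests only through the Y3 and WT arrays. H2-Ob fell in Y3/CD103-/- relative to WT by 1.04 ± 0.14 on the log2 scale (95% interval -1.36 to -0.72, limma adjusted p = 0.011), a difference set against signals below the array median. The call held without each of the 9 arrays in turn and was lost with the arrays of Y3/CD103-/- and WT alone (adjusted p = 0.0659). Y3/CD103-/- differed from Y3 by -0.82 ± 0.14 log2 (unadjusted p = 0.000151, adjusted p = 0.194), and Y3 from WT by -0.22 ± 0.14 (adjusted p = 0.449).

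H2-Oa, the α chain of DO, measured 4.19, 4.005 and 4.64 log2 in Y3/CD103-/-, 4.75, 4.62 and 5.03 in Y3, and 5.05, 5.12 and 4.86 in WT. It was lower in Y3/CD103-/- than in WT on every array, and the Y3 values lay between and overlapped both. H2-Oa in Y3/CD103-/- differed from WT by -0.73 ± 0.19 log2 (unadjusted p = 0.00332, limma adjusted p = 0.124) and from Y3 by -0.52 ± 0.19 (adjusted p = 0.442), and Y3 from WT by -0.21 ± 0.19 (adjusted p = 0.605). A second row that names H2-Oa together with BC051537 was dimmer, at 2.54 to 3.67 log2, and was not used.

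Ciita, the master regulator of class II transcription, was dim and level, at 3.53, 3.33 and 3.57 log2 in Y3/CD103-/-, 3.83, 3.38 and 3.88 in Y3, and 3.86, 3.72 and 3.36 in WT. All 9 values were above their array's median, and the groups overlapped. Y3 differed from WT by 0.05 ± 0.19 log2 (95% interval -0.37 to 0.48, limma adjusted p = 0.909), a sign that turned in 6 of 23 alternatives, quantile normalization and centring on the genes tested among them. Y3/CD103-/- differed from WT by -0.17 ± 0.19 (adjusted p = 0.764) and from Y3 by -0.22 ± 0.19 (adjusted p = 0.728).

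Counted over the 8 members tested, 5 (H2-Aa, H2-Ab1, H2-Eb1, H2-Ob and Cd74) had all Y3 arrays below all WT arrays, as did 4.93% of all genes tested. Between Y3/CD103-/- and WT, H2-Oa and H2-Ob did so, as did 6.67% of all genes. Between Y3/CD103-/- and Y3, H2-Aa, H2-Ab1, H2-Eb1 and Cd74 lay wholly above, as did 4.11% of all genes, and H2-DMa and H2-Ob wholly below, as did 14.4%. The median log2 difference of the 8 members, against that of all genes tested, was -0.46 against 0.15 for Y3 minus WT, -0.32 against 0.04 for Y3/CD103-/- minus WT, and 0.24 against -0.10 for Y3/CD103-/- minus Y3. These counts and medians are descriptions of genes chosen with results known.

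Markers of macrophages moved with the 3 chains and Cd74. Of 20 macrophage and monocyte markers on the array 15 were tested, and 0 passed in any of the 3 comparisons in limma. In Y3 versus WT their median difference was -0.55 log2, 8 lay lower and 1, Cd68, lay higher with an unadjusted p under 0.05, against 3.6% and 13.4% of all genes tested. At the same threshold 3 lay lower and 1 lay higher in Y3/CD103-/- than in WT, against 5.31% and 7.89%, and 5 lay higher and 0 lower in Y3/CD103-/- than in Y3, against 1.78% and 8.12%. The mean of the 20 ranged from 4.02 to 4.12 log2 in Y3/CD103-/-, from 3.64 to 3.84 in Y3 and from 3.91 to 4.37 in WT. Its Pearson's r with the mean of the 3 chains and Cd74 was 0.97 over 9 arrays and 0.92 after group means were taken out. In bulk RNA, fewer cells of a type and less RNA per cell cannot be told apart, and the part of these markers in the class II differences was not tested.

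C1qb, a chain of complement C1q made by tissue macrophages, measured 5.42, 5.19 and 5.08 log2 in Y3/CD103-/-, 4.23, 3.88 and 4.39 in Y3, and 4.63, 5.76 and 5.22 in WT. It shared the order of the class II chains, with the Y3 arrays the 3 lowest and WT array 1 the lowest WT array. Y3 differed from WT by -1.04 ± 0.26 log2 (limma adjusted p = 0.101) and Y3/CD103-/- from Y3 by 1.06 ± 0.26 (adjusted p = 0.309). Csf1r, the receptor for the growth factor CSF1 on macrophages, measured 4.60, 4.73 and 4.14 log2 in Y3/CD103-/-, 3.64, 3.32 and 3.79 in Y3, and 4.20, 4.68 and 4.88 in WT. The Y3 arrays were the lowest here too (Y3 versus WT -1.003 ± 0.23 log2, limma adjusted p = 0.0762; Y3/CD103-/- versus Y3 0.91 ± 0.23, adjusted p = 0.309).

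Some other macrophage markers did not share this order in full. C1qa, another C1q chain, and Adgre1 overlapped between Y3 and WT. Their differences were -0.09 ± 0.17 log2 (limma adjusted p = 0.804) and -0.21 ± 0.32 (adjusted p = 0.762). In Y3/CD103-/- both lay wholly above Y3 (0.31 ± 0.17, adjusted p = 0.561, and 0.38 ± 0.32, adjusted p = 0.715). Ms4a7, a membrane protein of macrophages, lay as low in Y3/CD103-/- (3.50, 3.63 and 3.75 log2) as in Y3 (3.00, 3.63 and 3.69), against 3.96, 5.02 and 5.39 in WT, and differed from WT by -1.16 in Y3/CD103-/- (limma adjusted p = 0.143) and by -1.35 in Y3 (adjusted p = 0.0894). Cd68, a lysosomal protein that other cells make as well, was higher by 0.77 log2 in Y3 than in WT (adjusted p = 0.0722) and by 0.74 in Y3/CD103-/- than in WT (adjusted p = 0.0803). Pearson's r with the mean of the 3 chains and Cd74 was 0.45 for C1qa, 0.66 for Adgre1 and 0.75 for Ms4a7. For Cd68 it was -0.53. Fcgr1, Cd14, Itgam, Mrc1 and Ctsk, all markers of the same list, were below the filter.

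**Figure D4:**
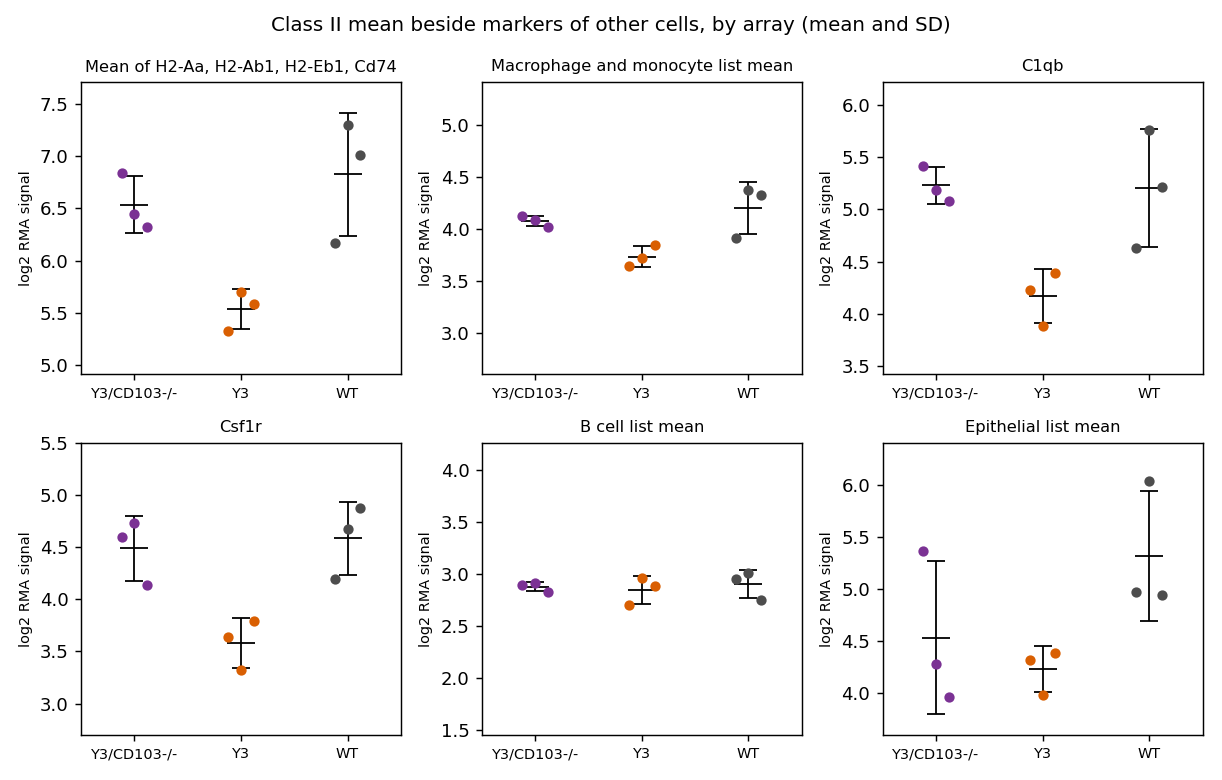
log2 RMA signal by array (points, with the mean and SD of 3 arrays) of the mean of H2-Aa, H2-Ab1, H2-Eb1 and Cd74, of the means of the macrophage and monocyte, B cell and intestinal epithelial lists, and of C1qb and Csf1r, for Y3/CD103-/-, Y3 and WT; every panel spans 2.8 log2. The class II mean, the macrophage list, C1qb and Csf1r are lowest on the 3 Y3 arrays, the B cell list lies between 2.70 and 3.01 on all arrays, and the epithelial list is as low on 2 of the 3 Y3/CD103-/- arrays as in Y3.

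The B cell list did not share this order. The mean of 12 B cell markers lay between 2.83 and 2.91 log2 in Y3/CD103-/-, 2.70 and 2.96 in Y3 and 2.75 and 3.01 in WT, below every array's median, and Ms4a1, which encodes CD20, measured 1.78 to 3.15 log2 over the 9 arrays. Of the 12, 5 were tested and 0 passed in any comparison in limma. At an unadjusted p under 0.05, Cd79a was lower in Y3 than in WT, against 3.6% of all genes, and higher in Y3/CD103-/- than in Y3, against 1.78%. The mean of 14 dendritic cell markers lay between 3.87 and 4.12 log2 in Y3/CD103-/-, 4.01 and 4.20 in Y3 and 4.11 and 4.21 in WT. That list holds Itgae, the deleted gene of 1 group, which was the 1 dendritic cell marker of 9 tested to pass in each comparison. At an unadjusted p under 0.05, 2 dendritic cell markers lay lower in Y3 than in WT, against 3.6% of all genes. They were Itgax, which encodes CD11c (-0.66 ± 0.26 log2, limma adjusted p = 0.243), and Ccr7, a chemokine receptor that T cells carry too (-0.48 ± 0.19, adjusted p = 0.232). Sirpa, a receptor of myeloid cells, measured 4.31, 3.98 and 4.53 log2 in Y3/CD103-/-, 3.91, 3.91 and 3.97 in Y3, and 4.19, 4.52 and 4.21 in WT, with the Y3 arrays the 3 lowest (Y3 versus WT -0.37 ± 0.18, limma adjusted p = 0.309). Without Itgae, a choice made after seeing the data, the mean of the 13 other markers was 3.74, 3.70 and 3.91 log2 in Y3/CD103-/-, 3.72, 3.82 and 3.59 in Y3, and 3.81, 3.83 and 3.93 in WT, and all 3 groups overlapped. Its r with the mean of the 3 chains and Cd74 was 0.52 over 9 arrays and 0.046 after group means were taken out, and the part of dendritic cell RNA in the class II differences was not tested. The Itgae call in Y3 versus WT was lost without WT array 2 or 3 or Y3 array 1 or 3 (limma adjusted p = 0.0503 to 0.112), and that in Y3/CD103-/- versus WT without WT array 1 (0.0521).

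Intestinal epithelial markers were low in Y3 as well. Of 18 tested, 18 had a negative difference in Y3 versus WT, as did 3790 of all 12832 genes tested, and the median was -0.98 log2. At an unadjusted p under 0.05, 9 lay lower and 0 higher, against 3.6% and 13.4% of all genes, and 0 passed in limma. The largest was that of Fabp2, a fatty-acid-binding protein of enterocytes, with 4.87, 4.50 and 2.78 log2 in Y3/CD103-/-, 4.03, 3.79 and 3.91 in Y3, and 5.87, 7.93 and 6.16 in WT (Y3 versus WT -2.74 ± 0.57 log2, limma adjusted p = 0.0557). The mean of the list was 5.36, 4.28 and 3.96 log2 in Y3/CD103-/-, 4.32, 3.98 and 4.39 in Y3, and 4.97, 6.04 and 4.94 in WT. Unlike the class II chains, it did not separate Y3/CD103-/- from Y3, since 2 of the 3 Y3/CD103-/- arrays lay within or below the Y3 range. Most single markers still had a higher mean in Y3/CD103-/- than in Y3. Of the 18 tested, 16 had a positive difference, as did 4338 of all 12832 genes, with a median of 0.40 log2 against -0.10. At an unadjusted p under 0.05, 0 lay higher and 0 lower there, against 1.78% and 8.12% of all genes. The r of the epithelial list mean with the mean of the 3 chains and Cd74 was 0.74 over 9 arrays and 0.63 after group means were taken out. Of 8 plasma cell markers tested, 0 passed in any comparison in limma, and in Y3 versus WT 5 differences were positive and 3 negative, with a median of 0.0090 log2. The 3 negative ones, Jchain, Sdc1 and Irf4, had an unadjusted p under 0.05 and 0 positive ones did, against 3.6% and 13.4% of all genes. Irf4 is also on the list of class II transcription factors below, where it is the 1 counted as lower in Y3. The mean of the plasma cell list had an r of 0.65 with the mean of the 3 chains and Cd74 over 9 arrays. After group means were taken out, this r was 0.49. Jchain, which joins secreted antibodies in plasma cells, measured 6.87, 5.37 and 5.34 log2 in Y3/CD103-/-, 4.48, 5.48 and 4.96 in Y3, and 5.66, 6.32 and 6.32 in WT (Y3 versus WT -1.13 ± 0.40 log2, adjusted p = 0.206). The part of epithelial and plasma cell RNA in the class II differences was not tested either.

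Single genes whose pattern was most like the mean of the 3 chains and Cd74 were sought among all genes tested, by Pearson's r over the 9 arrays. That mean was lowest on the 3 Y3 arrays, so low Y3 values of the genes found follow in part from how they were picked. Such values are no independent support for a pattern. The 10 highest were Adamdec1 (r = 0.97), Tyrobp and Olfr282 (0.95 each), Snord123 and Ccl3 (0.93 each), and Mt1, 1810065E05Rik, C1qb, Mgst3 and Mpeg1 (0.92 each). Tyrobp, an adaptor of myeloid and natural killer receptors, and C1qb and Mpeg1, a pore-forming protein of macrophages, are also on the macrophage list. Adamdec1, a secreted protease of the ADAM family, measured 6.27, 5.44 and 5.23 log2 in Y3/CD103-/-, 4.63, 4.73 and 4.65 in Y3, and 5.16, 6.81 and 6.42 in WT. Its Y3 arrays were the lowest and WT array 1 the lowest of WT, as for the class II chains (Y3 versus WT -1.46 ± 0.38 log2, limma adjusted p = 0.106).

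Of these 10 genes, Ccl3, a chemokine, and Mt1, a metal-binding stress protein, fell in Y3 relative to WT. Among all genes tested, 0.787% passed there in either direction. The 10 were picked by likeness to a mean that was lowest in Y3, so these 2 falls are no independent support for a pattern. Ccl3 measured 5.63, 6.09 and 5.37 log2 in Y3/CD103-/-, 4.68, 4.90 and 4.90 in Y3, and 5.72, 7.07 and 6.51 in WT (Y3 versus WT -1.61 ± 0.30, limma adjusted p = 0.0393). Mt1 measured 4.85, 4.66 and 4.63 log2 in Y3/CD103-/-, 4.14, 4.38 and 4.31 in Y3, and 4.91, 5.73 and 5.37 in WT (-1.06 ± 0.20, limma adjusted p = 0.0431). For both, the Y3 arrays lay below all others. The Ccl3 call was lost without WT array 2 or 3, any 1 Y3 array or Y3/CD103-/- array 1 (adjusted p = 0.0562 to 0.171), and the Mt1 call without any array but WT array 1 (0.055 to 0.198). By r of the deviations from group means, the 10 highest genes were Fbln1, Wfdc6a, Dot1l, Mt1, Adamdec1, Ch25h, Rmst, Kat7, Tyrobp and Ptgs2, with r from 0.94 to 0.99 over 9 arrays. These are the highest of 12828 genes ranked on few arrays, so such values follow in part from the search. Fbln1, Ch25h and Rmst were above their array's median on 3 of the 9 arrays and Wfdc6a on 5.

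The factors that act on class II promoters showed no call. Of 14 class II transcription factors tested, 0 passed in any comparison in limma, and their median difference in Y3 versus WT was 0.12 log2, against 0.15 for all genes. At an unadjusted p under 0.05, 1 lay higher and 1 lay lower in Y3 than in WT, against 13.4% and 3.6% of all genes. In Y3/CD103-/-, 2 lay lower than in WT, against 5.31% of all genes, and 1 lay lower than in Y3, against 8.12%. Rfxap, a subunit of the RFX complex, measured 4.26, 4.90 and 4.81 log2 in Y3/CD103-/-, 4.60, 4.57 and 5.08 in Y3, and 4.15, 4.19 and 4.35 in WT (Y3 versus WT 0.52 ± 0.21, limma adjusted p = 0.246). Irf8, an interferon regulatory factor of myeloid cells and B cells, measured 3.56, 3.96 and 3.73 log2 in Y3/CD103-/-, 4.22, 4.21 and 4.31 in Y3, and 4.60, 4.55 and 4.40 in WT. Its 3 groups did not overlap, in the same order as for H2-Ob, and Y3/CD103-/- differed from WT by -0.77 ± 0.15 log2 (adjusted p = 0.052).

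Of 13 endosomal processing genes tested, 0 passed in any comparison in limma. At an unadjusted p under 0.05, 1 (Ctsc) lay higher and 3 (Lgmn, Ctsh and Cd83) lower in Y3 versus WT. Among all genes tested, 13.4% and 3.6% did so. In Y3/CD103-/- versus WT, 1 (Ctsc) lay higher and 2 (Ifi30 and Cd83) lower, against 7.89% and 5.31%. In Y3/CD103-/- versus Y3, 1 (Marchf1) lay higher and 1 (Ctse) lower, against 1.78% and 8.12%. Ctsh differed by -0.88 ± 0.24 log2 in Y3 versus WT (limma adjusted p = 0.119). Lgmn, the lysosomal protease legumain, measured 5.09, 5.35 and 4.97 log2 in Y3/CD103-/-, 4.19, 5.05 and 4.40 in Y3, and 5.17, 5.99 and 6.06 in WT, with all Y3 arrays below all WT arrays (-1.19 ± 0.28, limma adjusted p = 0.0834). Cd83, which keeps class II at the surface, measured 8.42, 8.40 and 8.33 log2 in Y3/CD103-/-, 8.41, 8.70 and 7.81 in Y3, and 9.14, 9.13 and 9.08 in WT. It was lower in both Y3 and Y3/CD103-/- than in WT on every array (Y3 versus WT -0.81 ± 0.21, adjusted p = 0.101; Y3/CD103-/- versus WT -0.73 ± 0.21, adjusted p = 0.148).

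Genes of the class I pathway, some of which lie within the class II region, did not share the low values of Y3. Psmb9, Tap1, Psmb8 and Tap2 stand between H2-DMb1 and H2-Ob on chromosome 17. Psmb9, a subunit of the immunoproteasome, measured 7.91, 8.33 and 8.14 log2 in Y3/CD103-/-, 8.51, 8.13 and 8.47 in Y3, and 7.96, 7.79 and 7.70 in WT (Y3 versus WT 0.56 ± 0.17, limma adjusted p = 0.159), with every Y3 array above every WT array. Tap2, a subunit of the peptide transporter, differed by 0.62 ± 0.21 log2 in the same direction (adjusted p = 0.187), and Nlrc5, the class I counterpart of Ciita, by 0.57 ± 0.19 (adjusted p = 0.18). Of 17 class I genes tested, 0 passed in any comparison in limma, and 6 were higher and 0 lower in Y3 versus WT at an unadjusted p under 0.05, against 13.4% and 3.6% of all genes tested. All 17 had a positive difference in Y3 versus WT, as did 9042 of all 12832 genes, against 13 of 17 under quantile normalization and 10 of 17 after centring on the genes tested.

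Among 17 interferon-γ response genes tested, Ifng itself was the 1 that passed in both comparisons with WT. Ifng measured 4.93, 5.87 and 5.40 log2 in Y3/CD103-/-, 5.53, 5.47 and 5.72 in Y3, and 3.72, 4.14 and 3.96 in WT, so Y3/CD103-/- and Y3 both lay wholly above WT. It rose by 1.63 ± 0.23 log2 in Y3 (limma adjusted p = 0.0119) and by 1.46 ± 0.23 in Y3/CD103-/- (adjusted p = 0.0197). The Ifng call in Y3 was lost without Y3 array 1 or 3 (adjusted p = 0.0797 and 0.0928), and that in Y3/CD103-/- without WT array 1 or Y3/CD103-/- array 3 (0.0594 and 0.0729). Socs1, an inhibitor induced by interferons, measured 5.72, 5.85 and 6.23 log2 in Y3/CD103-/-, 6.47, 6.03 and 6.19 in Y3, and 5.43, 5.31 and 5.34 in WT (Y3 versus WT 0.87 ± 0.18, adjusted p = 0.0556). At an unadjusted p under 0.05, 3 of the 17 (Ifng, Socs1 and Iigp1) lay higher and 2 (Ifngr1 and Ifngr2, the chains of the interferon-γ receptor) lay lower in Y3 than in WT, against 13.4% and 3.6% of all genes. In Y3/CD103-/- versus WT, 2 (Ifng and Socs1) lay higher and 1 (Ifngr2) lower, against 7.89% and 5.31%, and in Y3/CD103-/- versus Y3 0 lay higher and 2 (Iigp1 and Icam1) lower, against 1.78% and 8.12%. Ifngr2 measured 5.95, 6.44 and 6.50 log2 in Y3/CD103-/-, 6.42, 6.57 and 6.25 in Y3, and 7.02, 6.86 and 6.95 in WT, so WT lay wholly above both (Y3 versus WT -0.53 ± 0.18, limma adjusted p = 0.191; Y3/CD103-/- versus WT -0.65 ± 0.18, adjusted p = 0.143). Ifngr1 differed from WT by -0.35 ± 0.14 in Y3 (limma adjusted p = 0.24). Ifng is an inducer of Ciita in other cells, and the values of Ciita beside these are those given above, with overlapping groups.

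The partners of class II on T cells and its co-stimulators gave 0 calls in limma among 10 genes tested in each comparison. Without adjustment (p under 0.05), 1 lay higher and 2 lay lower in Y3 than in WT, against 13.4% and 3.6% of all genes. Counts were equal for Y3/CD103-/- versus WT, against 7.89% and 5.31% of all genes. Cd86, a ligand of CD28 made by antigen-presenting cells and by some T cells, measured 4.11, 4.41 and 4.32 log2 in Y3/CD103-/-, 4.45, 3.82 and 4.76 in Y3, and 5.15, 5.43 and 5.93 in WT. Y3/CD103-/- and Y3 both lay wholly below WT (Y3 versus WT -1.16 ± 0.26, limma adjusted p = 0.0735; Y3/CD103-/- versus WT -1.23 ± 0.26, adjusted p = 0.0598). Cd28 differed from WT by -0.65 ± 0.17 in Y3 (adjusted p = 0.107) and by -0.61 ± 0.17 in Y3/CD103-/- (adjusted p = 0.146). Cd86 and Cd28 were thus as low in Y3/CD103-/- as in Y3, unlike the class II chains, a difference between genes that was not tested. Among the other genes of the class II locus, H2-Eb2 and the pseudogene H2-Ea were below the filter, and Btnl2 and H2-DMb2 did not pass.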

How the data were processed

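Gene expression was measured on 9 arrays, 3 per genotype, with groups taken from the labels. The authors deposited log2 signals made with RMA, as the submitters' processing notes name it. That they are log2 was judged by their range, and RMA's version, the annotation release and the build are not stated in the sources at hand. Of 39137 rows, the platform annotation named 1 gene for 23521, several for 1814 and none for 13802; 118 rows of several genes were kept because all but 1 gene were small RNA genes. Symbols were matched by gene identifier to RefSeq GRCm38.p6, which changed 0. A gene was tested if its brightest row exceeded its own array's median on at least 3 arrays, which left 12832 genes. All 9 arrays entered 1 limma model of group means (limma 3.58.1, R 4.3.3, lmFit and eBayes, 2-sided, 10.8 degrees of freedom), with p-values adjusted by Benjamini-Hochberg over all genes tested in each comparison. A gene was said to rise or fall at an adjusted p under 0.05.

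The members, the gene lists and the tests were chosen with earlier results of these data known. Genes named were all 9 members, up to 4 of the smallest p in each list and comparison, those needed for a count of 5 or fewer, the 10 highest correlations of each kind, and Itgae, Il2rb and Foxp3. Outside that rule, after their values were seen, Tap1 and Psmb8 were named as neighbours and C1qa and Adgre1 as further macrophage markers. Pairing by replicate number was checked: of 9 same-numbered pairs of arrays, 1 had a correlation of deviations over 0.1, so the numbers were not taken as pairs. The model was tested on simulated data. Alternatives changed the filter, the choice of rows, the scaling and the variance model, used array weights, fitted only the arrays compared, set another threshold, added a replicate block and left out each array in turn; averaging Y3 arrays 1 and 3, centring on the genes tested and leaving Itgae out of the dendritic cell list were added after seeing the data.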

Additional observations from a re-analysis of the deposited data

How the results depend on the processing

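The number of arrays, 3 per group, limits the precision, and H2-Ob, Ciita and H2-DMb1 lie near the dim end of the arrays. H2-Aa passed in Y3 versus WT in 16 of 23 alternatives (limma adjusted p = 0.00309 to 0.122) and H2-Ob in Y3/CD103-/- versus WT in 21 of 22 (0.00747 to 0.0659), and neither changed sign. In Y3 versus WT, 1 member was called with the settings of the report, 2 with the filter on all 9 arrays, 4 with an intensity trend, 3 with array weights, 3 at an adjusted p under 0.1, and 0 with Y3 arrays 1 and 3 averaged or with the arrays of the 2 groups alone. Leaving out 1 array gave 0 to 3 (0 without WT array 2, WT array 3 or any 1 Y3 array, 3 without WT array 1). In Y3/CD103-/- versus WT, 1 member was called, against 0 with the all-array filter, which removes H2-Ob, and 0 with the arrays of the 2 groups alone, and 1 to 1 when 1 array was left out. In Y3/CD103-/- versus Y3, 0 were called, 1 with array weights, and 0 to 0 when 1 array was left out. Over all genes, Y3 versus WT gave 101 calls, against 52 without a filter, 218 with the all-array filter, 332 with a trend, 350 with array weights, 292 at an adjusted p under 0.1, 12 with the averaged arrays and 8 to 120 without 1 array. Y3/CD103-/- versus WT gave 105, against 54, 212, 303, 60 and 280 for the first 5 of these settings, 20 with the 2 groups alone and 29 to 72 without 1 array. Y3/CD103-/- versus Y3 gave 1, against 3 with the mean of a gene's rows, 4 with a trend, 11 with array weights, 2 at an adjusted p under 0.1 and 1 to 2 without 1 array. The replicate block gave 54 calls in Y3 versus WT and 55 in Y3/CD103-/- versus WT, with the same member called in each (H2-Aa adjusted p = 0.0441, H2-Ob adjusted p = 0.0342). The calls in Y3 versus WT were 79 rises and 22 falls, 46 and 32 under quantile normalization, and 46 and 54 after centring on the genes tested. Signs that turned belonged to differences that did not pass: H2-DMa in Y3 versus WT (-0.11 under quantile normalization, -0.084 after centring), Ciita in Y3 versus WT (-0.015 under quantile normalization, -0.027 with averaged arrays, -0.12 after centring, -0.093 to 0.21 without 1 array), H2-Eb1 in Y3/CD103-/- versus WT (-0.42 to 0.13 without 1 array), and Cd74 in Y3/CD103-/- versus WT (-0.16 to 0.15 without 1 array). Csf1r passed in Y3 versus WT in 5 of 23 alternatives. The causes of these changes were not tested.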
